A study of Homo sapiens with 9 samples.

Results

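The replication-dependent histone genes are the multicopy genes of the histone clusters. They were taken as the rows of the deposited gene table whose symbols carry the cluster names of linker histones H1-1 to H1-5 or of the core histones H2A, H2B, H3 and H4, leaving out 7 rows whose symbols end in P. The choice used names only and gave 62 of the 36385 rows: 5 for H1, 15 for H2A, 17 for H2B, 13 for H3 and 12 for H4. The libraries came from MG-63, an established human osteosarcoma line, and were taken on day 7 in an osteogenic medium holding dexamethasone (100 nM), ascorbic acid (50 µg/mL) and beta-glycerophosphate (10 mM), and the labels give all 9 the same batch. There were 3 libraries for each of 3 surfaces: bare Ti6Al4V, a titanium alloy (bare alloy); Ti6Al4V+TiB2, the alloy with titanium boride (TiB2); and boronized Ti6Al4V/HA, a composite whose abbreviation HA is not spelled out in the labels (HA). The submitters marked the TiB2 libraries as left out of their final analysis, and the described treatment names only bare alloy and HA. Whether the 3 libraries of a surface are separate cultures is not given in the labels; p-values reflect only how these libraries vary, part of which may be technical.

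Core histones wrap DNA into nucleosomes: H3 and H4 form the central tetramer, H2A and H2B add as dimers, and H1 binds the linker DNA outside. The clustered genes are transcribed mainly in S phase, when replicated DNA needs new histones. Their classic mRNAs have no poly(A) tail and end instead in a conserved stem-loop, which the stem-loop binding protein SLBP binds and which ties their stability to DNA synthesis. Many of these genes can also make polyadenylated mRNAs from sites beyond the stem-loop, and such forms are known from differentiating and non-dividing cells. A library that starts from polyadenylated RNA therefore sees only a part of histone mRNA. Whether the RNA was selected for poly(A) or depleted of rRNA is not given in the sources used here.

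The promoters of the members share short motifs, and 3 are printed because their genes lead the results: H2BC21 and H2AC6 fell on both surfaces, and H2BC12 was the highest of the family per length. Each sequence covers the 250 bases before the RefSeq start site (GRCh38.p14), 5′ to 3′ on the gene's strand, which is minus for H2BC21 (chr1:149886683-149886932), plus for H2AC6 (chr6:26123922-26124171) and minus for H2BC12 (chr6:27146859-27147108). Capitals mark the CCAAT box, the TATA box (searched as TATAAA) and the octamer (searched as ATTTGCAT), each on either strand.
H2BC21: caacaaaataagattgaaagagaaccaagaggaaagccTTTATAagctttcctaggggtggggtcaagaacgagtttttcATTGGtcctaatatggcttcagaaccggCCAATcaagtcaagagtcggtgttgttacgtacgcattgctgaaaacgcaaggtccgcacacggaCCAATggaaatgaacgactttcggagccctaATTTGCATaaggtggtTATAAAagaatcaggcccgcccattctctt
H2AC6: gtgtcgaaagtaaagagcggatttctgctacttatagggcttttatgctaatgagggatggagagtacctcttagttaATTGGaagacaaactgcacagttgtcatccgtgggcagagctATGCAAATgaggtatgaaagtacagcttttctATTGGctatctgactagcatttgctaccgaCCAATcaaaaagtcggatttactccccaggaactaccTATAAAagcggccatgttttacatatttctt
H2BC12: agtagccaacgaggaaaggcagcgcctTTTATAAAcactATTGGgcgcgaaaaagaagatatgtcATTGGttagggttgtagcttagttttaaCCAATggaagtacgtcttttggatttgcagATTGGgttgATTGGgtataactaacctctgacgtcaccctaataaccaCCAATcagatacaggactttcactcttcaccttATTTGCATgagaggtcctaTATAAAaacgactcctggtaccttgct
In H2BC21 and H2BC12 the octamer began at position -46 from the start and a TATAAA at -30 and -27. In H2AC6 the TATAAA began at -31 and the octamer lay on the other strand at -130. In H2BC12 a pair of TATA matches on opposite strands shares letters near the left end. Over windows of 250 bases before to 50 after the start, 56 of the 62 members had an entry. CCAAT was in 85.7% of these against 35.7% of all 27305 promoters, TATAAA in 67.9% against 12.0%, and the octamer in 42.9% against 1.8%. The octamer was in 10 of 14 H2A and 13 of 16 H2B promoters, in 1 of 11 for H3, and in 0 of 5 for H1 and 0 of 10 for H4. Windows of head-to-head genes overlap, so 1 site can count for both. The octamer at -130 of H2AC6 is also that at -123 of H2BC4. The 1 H3 entry with an octamer, H3C4, has the same motif positions as H2AC7 and may hold the same sequence. CCAAT was in every matched H1, H2A, H2B and H3 promoter and in 2 of 10 for H4. These are matches of letters and say nothing of binding.

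The histone stem-loop was searched by its consensus on the transcript strand of GENCODE 29, and is shown because it marks the end of the classic histone mRNA. Capitals mark the arms of the stem. The 5 forms found follow, with 1 gene named for each.
H2AC6: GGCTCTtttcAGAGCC
H4C8: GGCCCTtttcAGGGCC
H2BC4: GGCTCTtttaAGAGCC
H4C14: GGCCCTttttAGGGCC
H2AC11: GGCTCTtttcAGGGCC
The search found it in at least 1 transcript of 25 of the 58 members with transcripts in that release. Counted by transcript and not by gene, 0.0619% of all 206694 transcripts held it. The first form was in 13 members, among them H2BC21, H2AC13 and H3C10, the second and the third in 4 each, the fourth in 3 and the last in 1. In 13 members the annotated transcript ran at least 100 bases past the stem-loop and held AATAAA, the main poly(A) signal, in its last 40 bases. Among them were H2AC6, with 1128 bases after the stem-loop, H2BC21 with 1729, H4C14 with 1167 and H3C10 with 769. Of the 58 members, 23 had at least 10 counts in every library here and 35 did not. The 13 comprised 7 of those 23 and 6 of those 35. A transcript without the motif may simply be annotated to end before it.

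The 9 libraries held between 58464306 and 72542556 assigned counts. MG-63 is of osteoblast lineage, and VIM, a mesenchymal filament gene, lay between 2768 and 7172 CPM (counts scaled to a common library size by TMM, the trimmed mean of M-values) in every library. A list of 8 mesenchymal and osteoblast-lineage markers summed to 20911 to 23408 CPM on bare alloy and 7096 to 12553 CPM on the coated surfaces, and its part in the histone values was not tested. The markers did not all move together. By the edgeR test described below, 2 rose and 6 fell on TiB2, where 12.9% and 12.2% of all genes did. On HA 1 rose and 4 fell, where 5.02% and 4.88% did. ALPL had means of 1.72 CPM on bare alloy, 12.9 on TiB2 and 11.0 on HA. A list of 8 epithelial markers summed to 143 to 219 CPM, with KRT8 at 73.6 to 118 CPM and KRT18 at 47.6 to 114 CPM the highest, while EPCAM reached at most 1.16 CPM. Some libraries stood apart. Bare alloy replicate 1 and the 3 HA libraries formed a set of 4 against the other 5: 22 genes were present (20 or more counts throughout) in one set and near absent (3 or fewer throughout) in the other, 17 of them present in the set of 5. CD3D, CD3E and LCK, genes of T cells, were among them, with 0 counts in all 4 libraries and 57 to 175 counts in each of the 5. No histone member was among the 22. By the same rule HA replicate 3 alone differed from the other 8 libraries in 22 genes and bare alloy replicate 1 alone in 19, including the members H4C3 and H2BC10. Each of the other 7 libraries did so in 2 to 14 genes. Bare alloy replicate 1 differed further in RNAs that lack poly(A) tails: 19 such genes summed to 892 CPM there, to 26.4 and 13.4 CPM in bare alloy replicates 2 and 3, and to 4.39 to 10.5 CPM on the coated surfaces. The bare alloy libraries held 214, 1.41 and 0.445 CPM of RN7SK, the scaffold of a transcription-elongation inhibitor. For RN7SL2, an RNA of the signal recognition particle, they held 211, 10.0 and 5.75 CPM.

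Histone transcripts fell into a well-measured and a thinly measured class. At least 10 counts in each of the 9 libraries were found for 25 members: 1 for H1, 8 for H2A, 9 for H2B, 2 for H3 and 5 for H4. They held 96.9% of all histone counts, and the 6 highest genes alone held 63.2%. The other 37 fell below 10 counts in some library. None had at most 3 counts in all 9 libraries, but outside bare alloy replicate 1 there were 6 with at most 3 counts and 17 with fewer than 10 in every library. Just inside the limit lay H2AC8, with a lowest count of 12, and H2BC13 and H2BC18 with 14. Just outside it lay H3C15, H3C12 and H2BC17, each with a lowest count of 9, and H3C14 with 8. The well-measured genes were spread over all the clusters: 6 of 11 members on chromosome 1 (149782689 to 149887965), and on chromosome 6 8 of 29 (26017032 to 26285638), 3 of 5 (27125897 to 27147562) and 8 of 16 (27807479 to 27893891). The 1 member on chromosome 21, H2BC12L, was thinly measured.

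**Figure D1:**
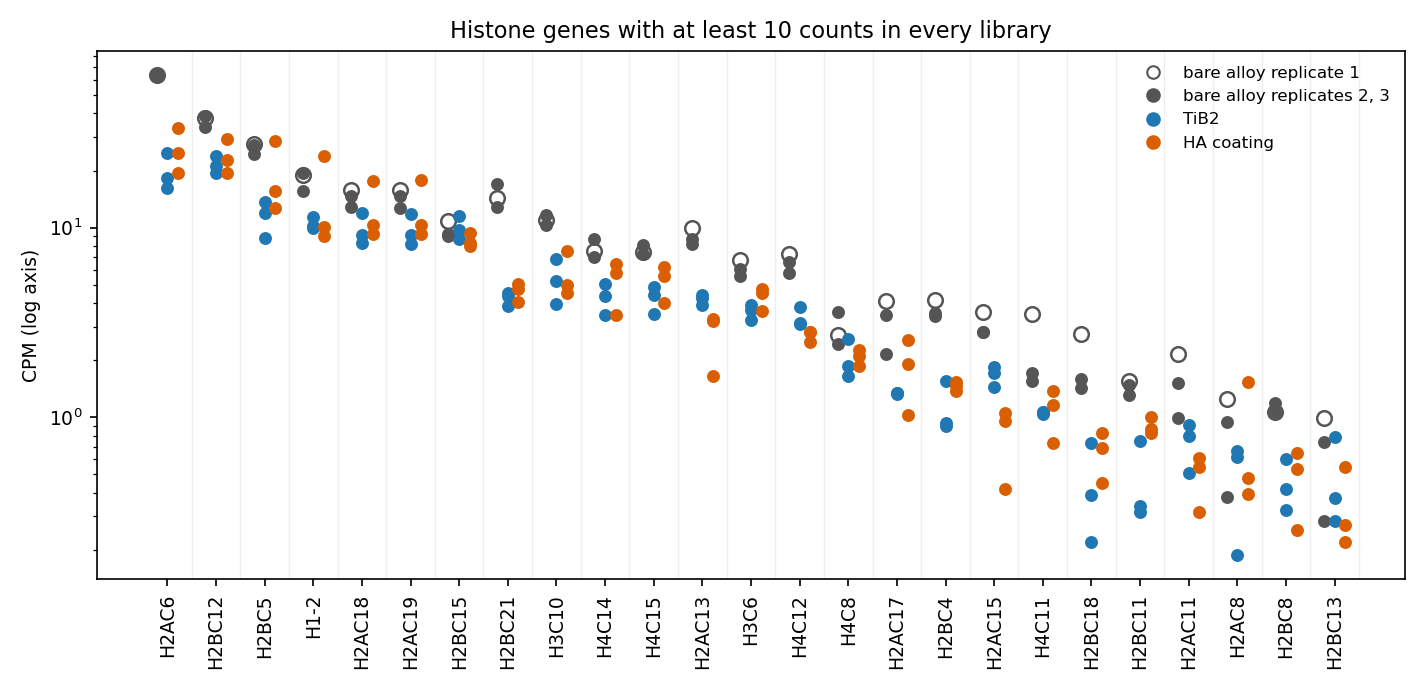
Level in CPM (log axis) of the 25 histone genes with at least 10 counts in every library, 1 point for each of the 9 libraries, ordered by mean level. Bare alloy replicate 1 is drawn as an open circle. H2AC6 lies at 63.6 to 64.0 CPM on bare alloy and at 16.2 to 33.4 CPM on the other surfaces, while the points of H2BC15 overlap.

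Per length, H2BC12 was the most abundant member, at 69.8 ± 5.22 FPKM (fragments scaled by transcript length and library size, SD, n = 3) on bare alloy, 41.9 ± 4.44 on TiB2 and 45.1 ± 6.5 on HA. H2AC6 followed on bare alloy with 35.8 ± 2.23 FPKM, and lay at 11.5 ± 2.64 on TiB2 and 14.5 ± 3.03 on HA. H2BC5 stood at 28.7, 12.9 and 20.4 FPKM on the 3 surfaces, H2AC18 at 25.2, 17.8 and 21.7, and H1-2 at 23.0, 13.9 and 18.1. H2BC12 stayed in first place on each surface, whereas H2AC6 was second on bare alloy only.

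Summed over all 62 members, the histone level was 307, 272 and 265 CPM on bare alloy, 123, 129 and 154 CPM on TiB2, and 133, 143 and 206 CPM on HA. All bare alloy libraries lay above all others, and HA replicate 3 was the highest of the coated ones. The mean on bare alloy (281 ± 22.6 CPM, SD, n = 3) was 2.08-fold that on TiB2 (136 ± 16.3) and 1.75-fold that on HA (161 ± 39.4). In bulk RNA, fewer cells making a transcript and less of it in each cell cannot be told apart.

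The H2A sum was 112 ± 7.20 CPM on bare alloy, 48.0 ± 8.33 on TiB2 and 57.8 ± 14.5 on HA (SD, n = 3), and that of H2B 99.4, 50.6 and 60.4 CPM. H4 summed to 28.0, 15.2 and 16.6 CPM and H3 to 21.4, 10.5 and 11.1 CPM. In these 4 families the 3 bare alloy libraries did not overlap with those of either coated surface. H1 was different: its sum was 25.1, 19.98 and 16.8 CPM on bare alloy, 10.6, 10.4 and 12.3 on TiB2, and 10.3, 9.64 and 24.6 on HA, where replicate 3 reached into the bare alloy range.

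**Figure D2:**
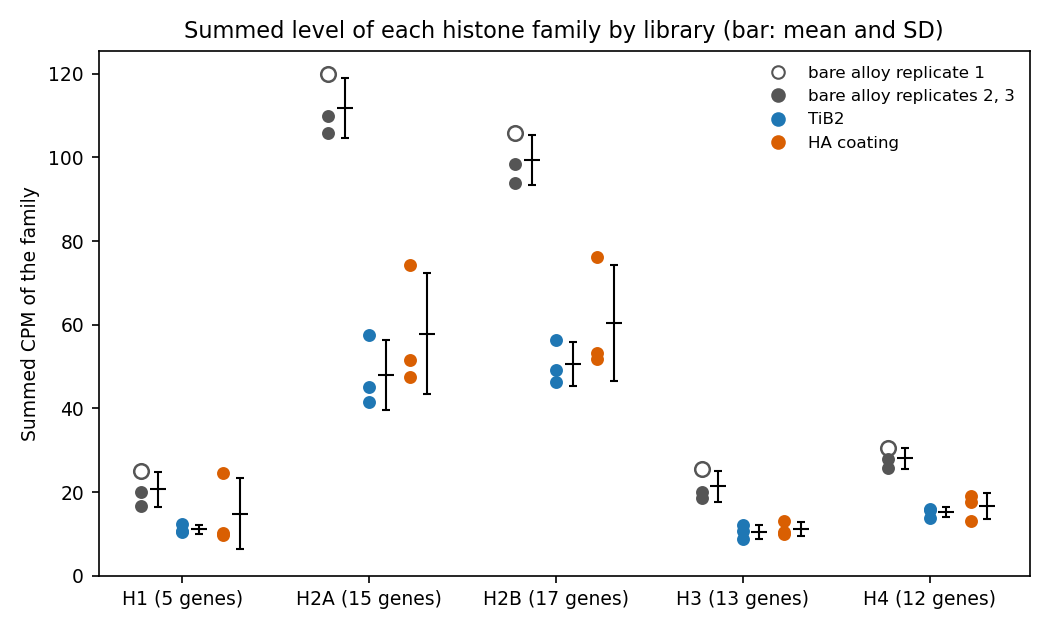
Summed CPM of each histone family in each library, with the mean and SD (n = 3) drawn beside the points. Bare alloy replicate 1 is an open circle. The bare alloy points lie above all others for H2A, H2B, H3 and H4, and for H1 the HA point at 24.6 CPM lies among them.

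Each surface was then compared with bare alloy gene by gene, with edgeR's quasi-likelihood test over all genes that passed its count filter and Benjamini-Hochberg adjusted p below 0.05 as the call. Both comparisons use the same 3 bare alloy libraries, so they are not independent of each other. On TiB2, 23 of the 38 members tested fell and 0 rose, where 12.2% of all 20152 genes tested fell. On HA, 9 of 40 fell and 0 rose, where 4.88% of all 20117 genes fell. The median log2 fold change of the members tested was -1.11 on TiB2, beside 0.00 for all genes, and -1.25 on HA, beside 0.02. The fitted change was below 0 for 37 of 38 members on TiB2 and 40 of 40 on HA, and for 49.8% and 49.1% of all genes. Of the members tested, 13 on TiB2 and 15 on HA were thinly measured, with medians of -1.62 and -1.81. Some of these, such as H2BC7 with 6, 6 and 8 counts on TiB2, passed the count filter only through their bare alloy libraries. The filter favours a fall for them, so their signs and medians are no support. The bare alloy libraries all lay above the coated ones for 24 members on TiB2 and 21 on HA, and for 21.5% and 17.5% of all genes. Of the 25 well-measured genes, 20 fell on TiB2 and 9 on HA, with medians of -0.95 and -0.82, the reverse of the order over all members tested. Their fitted changes were below 0 for 24 on TiB2 and 25 on HA, and bare alloy lay above all coated libraries for 21 and 17. In 3 pairs of near-identical copies the counts over all libraries were close (6863 and 6859, 3222 and 3203, 142 and 138), and reads could be split between them. With 1 gene of each pair the TiB2 count is 21 of 35. This still counts apart H4C11 and H4C12, whose annotated transcripts match, and H3C12 and H2AC17, whose rows overlap on the same strand. Reads could be shared there too.

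The HA count changed with the libraries used, and so did the share of all genes that fell. It was 4 without bare alloy replicate 1, where 2.28% of all genes fell, 4 without replicate 2 (1.55%) and 5 without replicate 3 (1.53%). H2AC6, H2BC21, H2AC13 and H4C12 fell in each of these 3 fits, and H2BC4 only without replicate 3. Without bare alloy replicate 1 the median on HA was -0.63, and 37 of 40 members were below 0. The count was 8 without HA replicate 1, where 9.03% of all genes fell, and 6 without HA replicate 2 (2.54%). Without HA replicate 3 the count was 11, where 4.57% of all genes fell, with H1-2, H2BC5, H2BC12 and H2BC6 added and H2AC11 and H2BC18 lost. On TiB2 the count without bare alloy replicate 1 was 17, where 9.96% of all genes fell, and the median was -0.77. That fit lies within the 5 libraries that the T cell genes put together. Within the other 4, bare alloy replicate 1 alone lay above all 3 HA libraries for 20 of the 25 well-measured genes, and for 28.4% of all genes. Bare alloy replicates 2 and 3 both did for 17 of the 25, and for 21.9% of all genes. With bare alloy replicate 1 as the only bare library, a choice made after seeing the data that assumes it varies like the HA libraries, 3 members fell on HA (H1-5, H3C11 and H3C3), all thinly measured, where 0.798% of genes fell.

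**Figure D3:**
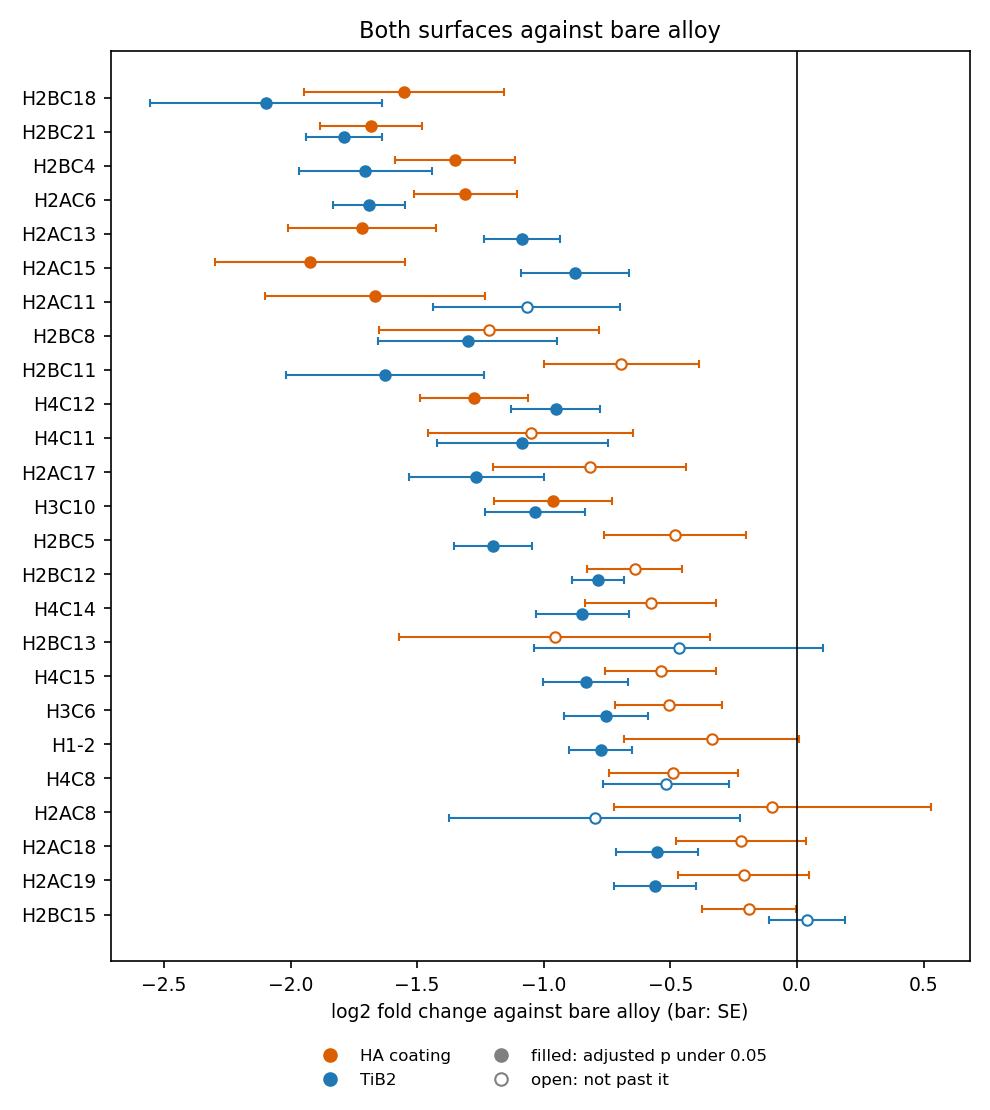
Log2 fold change with its standard error for the 25 well-measured members, HA (orange) and TiB2 (blue) against the same 3 bare alloy libraries, ordered by the mean of both values. Filled points passed an edgeR adjusted p of 0.05, 20 on TiB2 and 9 on HA, and H2BC15 on TiB2 is the only point right of 0.

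Among the H2A genes, 6 of 9 tested fell on TiB2 and 4 of 10 on HA, where 12.2% and 4.88% of all genes fell. H2AC6 (chr6:26124145-26139116) was the highest histone gene by counts on bare alloy, at 63.7, 64.0 and 63.6 CPM, against 16.2, 18.2 and 24.8 CPM on TiB2 and 19.4, 24.8 and 33.4 CPM on HA. Bare alloy varied least, and no coated library came near it. The log2 fold change was -1.69 ± 0.14 on TiB2 (SE, edgeR adjusted p = 4.84e-05) and -1.31 ± 0.20 on HA (adjusted p = 0.00603). H2AC13 stood at 9.93, 8.66 and 8.20 CPM on bare alloy, 4.24, 3.93 and 4.43 on TiB2, and 3.23, 3.29 and 1.65 on HA. Its groups did not overlap, and it fell by 1.09 ± 0.15 on the log2 scale on TiB2 (edgeR adjusted p = 0.000792) and by 1.72 ± 0.29 on HA (adjusted p = 0.00862).

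H2AC15 showed the same order at a lower level, with 3.57, 2.82 and 2.82 CPM on bare alloy, 1.45, 1.84 and 1.71 on TiB2 and 0.958, 1.05 and 0.420 on HA. It fell by 0.88 ± 0.21 on TiB2 (edgeR adjusted p = 0.0153) and by 1.92 ± 0.37 on HA (adjusted p = 0.0150), the largest change of a well-measured gene on HA. Both calls were at the margin: the HA call was lost without any 1 of the bare alloy libraries (adjusted p between 0.0528 and 0.0562) and the TiB2 call without bare alloy replicate 1 (0.0512). H2AC11 fell on HA, by 1.67 ± 0.43 (edgeR adjusted p = 0.0442), from 1.55 ± 0.585 to 0.490 ± 0.154 CPM (SD, n = 3). On TiB2 its value was -1.07 ± 0.37 (adjusted p = 0.0630), and the HA call was lost in 5 of 6 fits that left out 1 library (0.0673 to 0.165), the exception being HA replicate 1. H2AC17 fell on TiB2, by 1.27 ± 0.26 (edgeR adjusted p = 0.00734), from 3.22 ± 0.985 to 1.33 ± 0.0120 CPM, and had -0.82 ± 0.38 on HA (adjusted p = 0.205).

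H2AC18 and H2AC19 are near-identical copies on chromosome 1 whose counts never differed by more than 1.11%, and are read as 1 measurement. H2AC18 lay at 15.7, 12.8 and 14.6 CPM on bare alloy, 8.25, 9.15 and 12.0 on TiB2, and 10.3, 9.24 and 17.7 on HA, where replicate 3 was the highest library of all. It fell on TiB2 by 0.55 ± 0.16 (edgeR adjusted p = 0.0332), a call lost in 4 of 6 fits without 1 library (bare alloy 1 or 3, TiB2 1 or 2, 0.0931 to 0.104), and had -0.22 ± 0.26 on HA (0.624). H2AC8 was low everywhere, with bare alloy libraries between 0.379 and 1.24 CPM, TiB2 libraries between 0.187 and 0.665 and HA libraries between 0.391 and 1.53. Its surfaces overlapped and neither comparison passed the test (-0.80 and -0.10).

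Of the H2B genes, 9 of 13 tested fell on TiB2 and 3 of 13 on HA, where 12.2% and 4.88% of all genes fell. H2BC21 (chr1:149884459-149886682), formerly HIST2H2BE, stood at 14.4, 16.9 and 12.9 CPM on bare alloy, 4.38, 4.54 and 3.84 on TiB2 and 4.73, 5.04 and 4.04 on HA. Both coated surfaces lay close together and far below bare alloy. It fell 3.46-fold on TiB2 (log2 -1.79 ± 0.15, edgeR adjusted p = 4.68e-05) and 3.21-fold on HA (-1.68 ± 0.20, adjusted p = 0.00219). H2BC4 stood at 4.13, 3.52 and 3.43 CPM on bare alloy, 1.56, 0.897 and 0.933 on TiB2 and 1.45, 1.53 and 1.37 on HA, so that bare alloy lay above both coated surfaces. It fell by 1.71 ± 0.26 on TiB2 (edgeR adjusted p = 0.0015) and by 1.35 ± 0.24 on HA (0.00975), where the call was lost without bare alloy replicate 1 (0.0508) or 2 (0.0522).

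H2BC18 stood at 2.74, 1.42 and 1.60 CPM on bare alloy, 0.220, 0.726 and 0.389 on TiB2 and 0.447, 0.830 and 0.690 on HA. It fell by 2.1 ± 0.46 on TiB2 (edgeR adjusted p = 0.00905), and by 1.55 ± 0.39 on HA (0.0407), where leaving out any 1 of the 6 libraries ended the call (0.0605 to 0.157). H2BC12 (chr6:27146361-27146855) fell on TiB2, from 37.9, 38.8 and 34.1 CPM to 21.0, 19.3 and 23.8 (-0.79 ± 0.10, edgeR adjusted p = 0.00065). On HA it lay at 19.5, 22.6 and 29.3 CPM, below all bare alloy libraries, with -0.64 ± 0.19 and an adjusted p of 0.0616, or 0.0179 without HA replicate 3. H2BC5 fell on TiB2 from 27.5, 24.5 and 27.3 CPM to 8.82, 11.9 and 13.6 (-1.20 ± 0.15, edgeR adjusted p = 0.00054). Its HA libraries were 15.6, 12.7 and 28.7 CPM, with replicate 3 above every bare alloy library, and the change was -0.48 ± 0.28 (0.304), or -0.90 without that library (0.0186).

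The remaining H2B calls were on TiB2 and at low levels. H2BC11 had 1.45 ± 0.122 CPM on bare alloy and 0.467 ± 0.242 on TiB2 (-1.63 ± 0.39, edgeR adjusted p = 0.0141) and H2BC8 1.11 ± 0.0721 and 0.448 ± 0.139 CPM (-1.30 ± 0.35, 0.0246). The H2BC8 call was lost without bare alloy replicate 2 or 3 or TiB2 replicate 2 or 3 (0.0637 to 0.0787). H2BC7 had 41, 25 and 40 counts on bare alloy and 6, 6 and 8 on TiB2 (-2.50 ± 0.55, edgeR adjusted p = 0.00899), with 12, 18 and 13 on HA (-1.42 ± 0.53, 0.124). H2BC17 had 71, 16 and 49 counts against 10, 17 and 11 (-1.98 ± 0.63, edgeR adjusted p = 0.0465), overlapping groups, and of the 6 fits without 1 library the call stood only in the 1 without bare alloy replicate 2 (0.0742 to 0.193 in the other 5). It was lost under 6 of 11 other settings as well, with -0.77 for limma on log2(FPKM + 1). H2BC13 lay under 1 CPM in every library, and neither comparison passed (-0.47 on TiB2 and -0.96 on HA).

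H2BC15 stood apart from the other abundant members. It lay at 10.9, 8.97 and 9.29 CPM on bare alloy, 8.75, 9.66 and 11.5 on TiB2 and 7.97, 8.31 and 9.36 on HA, so that all 3 surfaces overlapped. The log2 fold change was 0.04 ± 0.15 on TiB2 (edgeR adjusted p = 0.879) and -0.19 ± 0.19 on HA (0.547). The sign of the TiB2 value turned with upper-quartile scaling (-0.0079) and without bare alloy replicate 2 (-0.017) or TiB2 replicate 3 (-0.076). Its row spans 13660 bases (chr6:27838545-27852204), far more than the coding part of a histone gene, and its 5308 counts over all libraries gave only 2.12 FPKM on bare alloy. The rows of H2AC6 and H2BC5, which fell on TiB2, span 14972 and 13228 bases. The longest GENCODE 29 transcript is 4137 bases for H2BC15, 1668 for H2AC6 and 789 for H2BC5. The part of span or transcript length in these values was not tested.

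Of the 6 H3 genes tested 3 fell on TiB2 and 1 on HA, where 12.2% and 4.88% of all genes fell. H3C10 stood at 11.0, 11.7 and 10.4 CPM on bare alloy, 3.97, 5.26 and 6.86 on TiB2 and 4.50, 4.98 and 7.52 on HA. No coated library reached bare alloy, and it fell by 1.04 ± 0.20 on TiB2 (edgeR adjusted p = 0.00448) and by 0.96 ± 0.23 on HA (0.0348). The HA call was lost without any 1 of the bare alloy libraries or HA replicate 2 (0.1001 to 0.139). H3C6 lay at 6.09 ± 0.586, 3.60 ± 0.328 and 4.30 ± 0.576 CPM on bare alloy, TiB2 and HA (SD, n = 3), with -0.75 ± 0.17 on TiB2 (edgeR adjusted p = 0.00916) and -0.51 ± 0.21 on HA (0.162). H3C12 had 152, 91 and 83 counts on bare alloy, 54, 43 and 35 on TiB2 and 48, 44 and 9 on HA. Bare alloy lay above both coated surfaces, which overlapped, with -1.43 ± 0.36 on TiB2 (edgeR adjusted p = 0.0175, lost without bare alloy replicate 1 or TiB2 replicate 2 or 3, 0.0540 to 0.0634) and -1.81 ± 0.60 on HA (0.0908).

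Of the H4 genes, 4 of 6 tested fell on TiB2 and 1 of 7 on HA, where 12.2% and 4.88% of all genes fell. H4C12 stood at 7.28, 5.73 and 6.59 CPM on bare alloy, 3.10, 3.83 and 3.16 on TiB2 and 2.81, 2.82 and 2.49 on HA. It fell by 0.95 ± 0.17 on TiB2 (edgeR adjusted p = 0.00372) and by 1.27 ± 0.21 on HA (0.00806), with no overlap. H4C11, whose annotated transcript matches the 312 bases of the H4C12 transcript without a mismatch, had 3.51, 1.55 and 1.71 CPM on bare alloy and 1.07, 1.07 and 1.04 on TiB2. The groups did not overlap, and bare alloy replicate 1 stood above the rest. The fall on TiB2 (-1.08 ± 0.34, edgeR adjusted p = 0.0426) was -0.63 without that library (0.145) and was also lost without bare alloy replicate 3 or any 1 of the TiB2 libraries (0.0505 to 0.108). On HA it had -1.05 ± 0.40 (0.134). H4C14 and H4C15, near-identical copies on chromosome 1, fell on TiB2 by 0.85 ± 0.18 and 0.83 ± 0.17 (edgeR adjusted p = 0.00856 and 0.00598) from 7.73 and 7.60 CPM, and had -0.58 and -0.54 on HA (0.187 and 0.153). H4C8 passed in neither comparison, with -0.52 ± 0.25 on TiB2 and -0.49 ± 0.26 on HA.

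H1-2, the 1 well-measured linker histone gene, stood at 19.1, 19.3 and 15.6 CPM on bare alloy and 10.1, 9.99 and 11.4 on TiB2 (-0.78 ± 0.12, edgeR adjusted p = 0.00189). On HA it lay at 10.0, 9.05 and 23.9 CPM, with replicates 1 and 2 at the TiB2 level and replicate 3 above every bare alloy library. The change on HA was -0.34 ± 0.34 (edgeR adjusted p = 0.569), or -0.92 without HA replicate 3 (0.0224). In that library H2BC5 and H2AC18 were also above the bare alloy range, while H2AC13, H2AC15 and H2AC17 were at their lowest of the HA group. A smooth trend on GC content and length took up 23.1% of the deviation from the mean over libraries in HA replicate 2, 13.7% in HA replicate 3 and 1.17% to 7.92% in the others, and its part in these values was not tested.

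Between HA and TiB2, 0 of 32 members passed the edgeR test, where 0.632% of all 20086 genes did, and DESeq2 called 0 as well. At an unadjusted p below 0.05 there were 2: H2AC15, lower on HA by 1.05 ± 0.40 on the log2 scale, and H2BC5, higher by 0.71 ± 0.30. Neither held after adjustment (edgeR adjusted p = 0.365 and 0.397). The median over the members was 0.12 and became -0.16 without HA replicate 3. Standard errors of the well-measured genes reached 0.65 here (H2AC8), so a miss does not show equal levels.

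Most of the thinly measured members were highest in 1 library, bare alloy replicate 1. Summed, these 37 genes gave 24.4 CPM in bare alloy replicate 1, 5.46 and 7.03 CPM in replicates 2 and 3, and 2.83 to 3.67 CPM in each coated library. The ratio of bare alloy replicate 1 to the mean of the other bare alloy libraries was 3.91, against 1.08 for the 25 well-measured genes. Of these, 5 genes of low level had ratios of 1.72 to 2.15 (H2AC11, H2BC18, H2AC8, H2BC13 and H4C11). In 29 of the 37 bare alloy replicate 1 was the highest of all 9 libraries, against 11 of the 25. H2BC10 had 26 counts there and 0 in the 8 others. H3C11 had 75, 2 and 4 counts on bare alloy, H3C3 had 45, 0 and 0, H4C3 had 36, 0 and 0, and the linker gene H1-5 had 155, 2 and 24. RN7SK and RN7SL2, whose RNAs lack poly(A) tails, were high in the same library, and their part in the histone values was not tested. Whether the histone RNAs counted there had tails was not measured. Of this class 15 members were tested on HA and 0 fell, and 13 were tested on TiB2 and 3 fell (H3C12, H2BC7 and H2BC17, given above). A floor of 3 counts is 0.0450 to 0.0548 CPM in these libraries, and differences below that were not detectable at this depth.

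**Figure D4:**
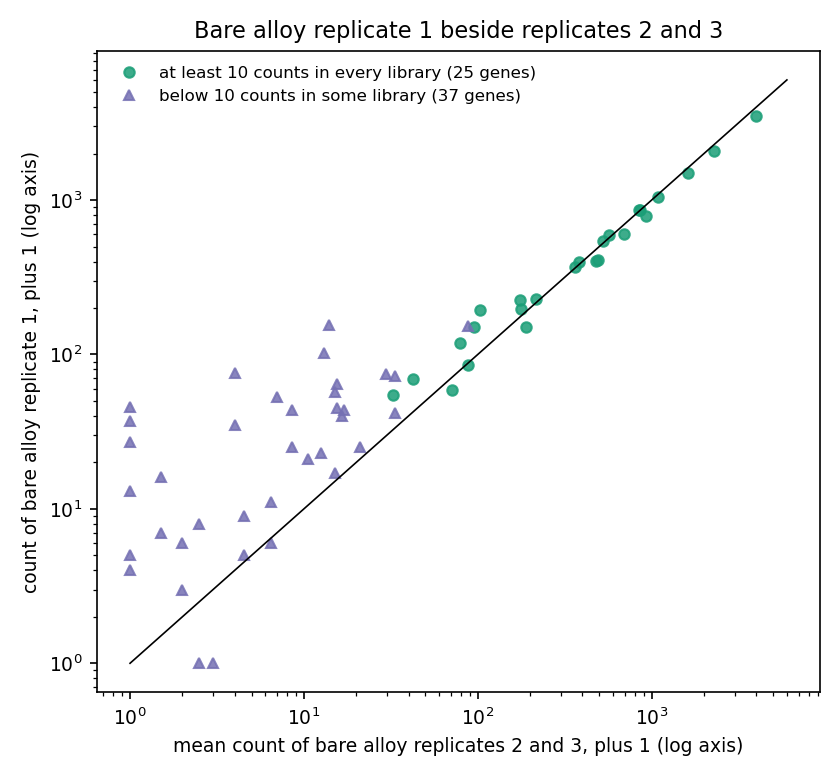
Count of each of the 62 members in bare alloy replicate 1 against the mean count of bare alloy replicates 2 and 3, both with 1 added and on log axes, with the line of equality. Most of the 25 well-measured genes lie near the line, H4C11, H2BC13, H2AC8, H2BC18 and H2AC11 lie above it, and most of the 37 thinly measured genes lie above it.

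Many H2A and H2B genes stand head to head, sharing 1 short stretch of DNA between their start sites. In the deposited coordinates, 11 pairs of members diverged within 1000 bases, 10 of them H2A with H2B at 169 to 292 bases. Per length, by mean FPKM over the 9 libraries, partners differed by more than 4-fold in 6 of these 10 pairs. H2BC12 exceeded H2AC12, 250 bases away, 857-fold (15353 against 17 counts). H2AC13 exceeded H2BC13 9.85-fold, H2BC21 exceeded H2AC20 8.03-fold and H2AC6 exceeded H2BC4 7.60-fold, while H2BC8 and H2AC8 were within 1.02-fold. In the pair of H2AC6 and H2BC4 both partners fell on both surfaces. In the pair of H2AC15 and H2BC15, 169 bases apart, H2AC15 fell on both and H2BC15 had 0.04 on TiB2 and -0.19 on HA, as given above. The difference within that pair was not tested.

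Genes of DNA replication, which accompany histone synthesis in S phase, were higher on the coated surfaces. Of 37 such genes 33 rose on TiB2 and 29 on HA, with 0 lower and median log2 fold changes of 0.68 and 0.91, where 12.9% and 5.02% of all genes rose. CDT1, a licensing factor for replication origins, stood at 6.14, 6.92 and 6.46 CPM on bare alloy, 17.2, 14.4 and 12.7 on TiB2 and 15.6, 11.5 and 13.4 on HA. It rose by 1.19 ± 0.14 on TiB2 (edgeR adjusted p = 0.000413), and bare alloy lay below both coated surfaces, which overlapped. POLE2, a subunit of DNA polymerase epsilon, rose by 1.81 ± 0.21 on HA (edgeR adjusted p = 0.00179), where bare alloy held 1.97, 1.75 and 2.06 CPM and HA 6.69, 6.86 and 6.84. TYMS, for thymidylate synthesis, rose by 1.01 ± 0.14 on TiB2 (edgeR adjusted p = 0.000736), and CDC45, of the replicative helicase, by 1.32 ± 0.17 on HA (0.00289). The HA count was 8 without bare alloy replicate 1, 8 without 2 and 7 without 3, and 24 to 30 without 1 of the HA libraries, while the median stayed between 0.86 and 0.94. Over all genes the calls on HA changed between these fits too, as given below. The TiB2 count was 28 to 34 without any 1 library.

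Of 26 tested genes for histone transcription and mRNA processing, 10 rose on TiB2 and 8 on HA and 0 fell, with medians of 0.19 and 0.53. Of all genes, 12.9% rose and 12.2% fell on TiB2, and 5.02% rose and 4.88% fell on HA. SLBP lay at 28.2, 35.3 and 32.3 CPM on bare alloy, 47.3, 39.0 and 39.0 on TiB2 and 42.2, 48.8 and 74.8 on HA, all coated libraries being higher. It rose on TiB2 by 0.39 ± 0.11 (edgeR adjusted p = 0.0313), a call lost without bare alloy replicate 1 or 3 or TiB2 replicate 1 (0.0829 to 0.111) and under 6 of 11 other settings, and had 0.78 ± 0.22 on HA (0.0589, or 0.0192 without HA replicate 1). NPAT, the coactivator of histone genes in S phase, had 0.17 and 0.32 (edgeR adjusted p = 0.174 and 0.458). CCNE2, a cyclin E that activates it, rose by 0.43 ± 0.12 on TiB2 (edgeR adjusted p = 0.0229, lost in 5 of 6 fits without 1 library, all but TiB2 replicate 3, 0.0502 to 0.0731) and by 1.22 ± 0.17 on HA (0.00363). E2F1, a transcription factor of S phase entry, rose by 0.89 ± 0.18 and 1.23 ± 0.20 (edgeR adjusted p = 0.00614 and 0.00793, the latter 0.0528 without bare alloy replicate 3). LSM11, a protein of the U7 particle that cuts histone pre-mRNA, rose by 0.77 ± 0.11 on TiB2 (edgeR adjusted p = 0.00115). The number higher on HA was 3 without bare alloy replicate 1, 3 without 2, 2 without 3 and 5 without HA replicate 2, and 12 without HA replicate 1, where 1 was lower. Calls over all genes on HA changed between these fits too and are given below.

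Histone chaperones gave 14 higher and 2 lower of 24 on TiB2, where 12.9% and 12.2% of all genes were. On HA 8 were higher and 1 lower, where 5.02% and 4.88% of all genes were. Their medians were 0.32 on TiB2 and 0.42 on HA. HJURP, which deposits the centromeric histone CENPA, rose by 1.00 ± 0.10 on TiB2 and 1.17 ± 0.15 on HA (edgeR adjusted p = 0.000145 and 0.00275), and ASF1B, an H3 and H4 chaperone, by 0.90 ± 0.14 and 1.10 ± 0.19 (0.0015 and 0.00992, the latter lost without bare alloy replicate 1 or 2, 0.0554 and 0.0655). UBN1, of the complex that deposits H3.3 outside replication, fell by 0.55 ± 0.10 and 0.95 ± 0.22 (edgeR adjusted p = 0.00456 and 0.0320), the HA call being lost without any 1 library but HA replicate 1 (0.0581 to 0.128). The number of chaperones higher on HA was 2 without any 1 of the bare alloy libraries and 5 without HA replicate 2, and on TiB2 9 without bare alloy replicate 3 or TiB2 replicate 1. In those HA fits the calls over all genes were fewer as well, as given below. A list of other histone genes, mainly replication-independent variants, held few calls: of 15 tested, 3 rose and 1 fell on TiB2, where 12.9% and 12.2% of all genes did, and 1 rose on HA, where 5.02% did. Its medians were -0.07 on both. H2AZ1, a variant of H2A at promoters, rose from 95.1, 100.98 and 97.2 CPM to 183, 142 and 154 on TiB2 (0.71 ± 0.09, edgeR adjusted p = 0.000651) and to 174, 262 and 336 on HA (1.39 ± 0.23, 0.00806, or 0.0503 and 0.0515 without bare alloy replicate 2 or 3). H3-3B, the main gene for H3.3, had -0.07 on TiB2 and 0.46 on HA (edgeR adjusted p = 0.606 and 0.163). H2BU1 fell on TiB2 by 0.96 ± 0.22 (edgeR adjusted p = 0.0110). H1-10 was the 1 gene of that list called between HA and TiB2 (-2.19 ± 0.34, edgeR adjusted p = 0.0191), a call lost without any 1 of the TiB2 libraries (0.0578 to 0.0927). It lay at 10.9 CPM in bare alloy replicate 1 and 5.42 to 16.1 on HA, and at 46.6 to 54.7 CPM in the other 5 libraries, the same sides as for CD3E.

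**Figure D5:**
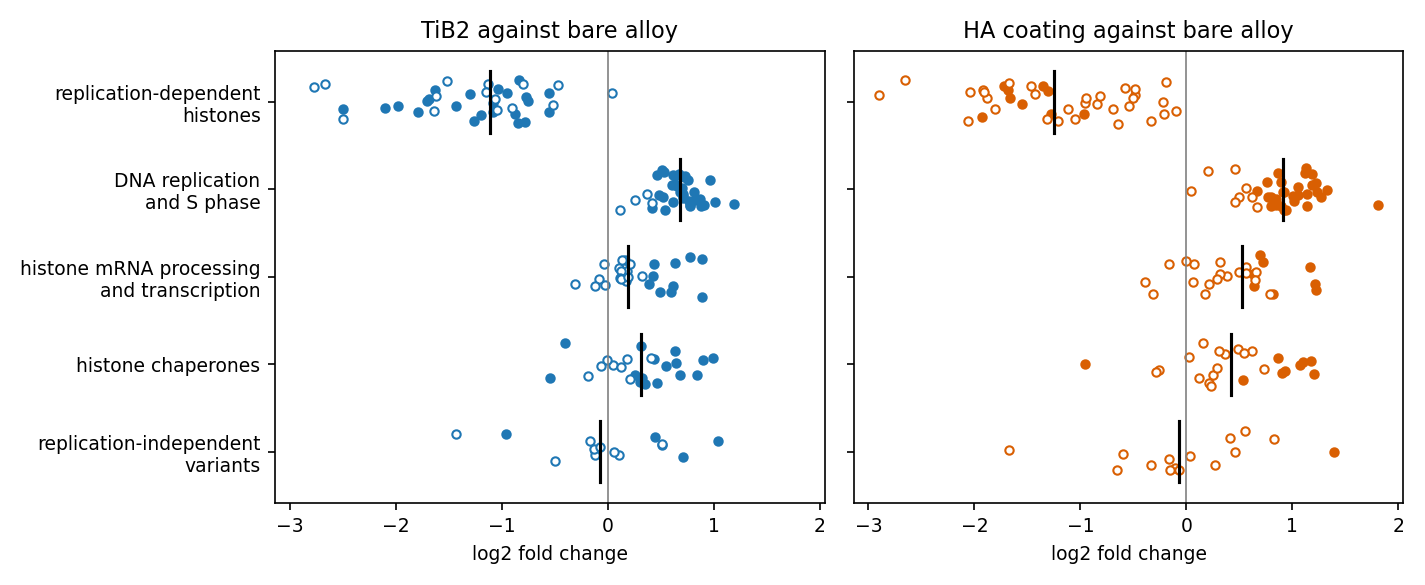
Log2 fold change of each tested gene of the histone members and 4 related lists, TiB2 (left) and HA (right) against the same 3 bare alloy libraries. Filled points passed an edgeR adjusted p of 0.05, and black bars are medians, at -1.11 and -1.25 for the histones and 0.68 and 0.91 for DNA replication. The histone medians include thinly measured genes, without which they are -0.95 and -0.82.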

How the data were processed

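The submitters' processing notes name the build GRCh38 and, without roles, featureCounts 2.0.1, limma, HISAT2 2.2.1, cutadapt 2.10 and StringTie 2.1.4, and neither strand setting nor handling of multi-mapping reads is stated. The authors deposited raw counts and FPKM per gene in 1 table. RNA was extracted with TRIzol and libraries made with a NEBNext Ultra RNA kit, per the labels. The members and gene lists were chosen with earlier results of these data known.

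The deposited counts were tested with edgeR 4.0.16 in R 4.3.3 (filterByExpr, TMM, glmQLFit and glmQLFTest, two-sided, Benjamini-Hochberg over all genes tested, threshold 0.05) on the 6 libraries of each comparison. CPM used TMM factors over all 9 libraries. Levels per length were compared between genes on the deposited FPKM. Rankings of genes by counts or CPM are not corrected for length. Every member with at least 10 counts in each library, or called in any comparison, is named, and other genes are the called ones of largest fold in each list, up to 3 in each direction, plus SLBP, NPAT, CCNE2, H2AZ1, H3-3B, RN7SL2 and RN7SK. Not all of those are described, and 1 further gene of the rule is not reported here. The alternatives were DESeq2 1.42.0, limma 3.58.1 on log2(FPKM + 1) and on log2(FPKM + 0.1), other scalings and filters, all 9 libraries in 1 fit, a replicate block, a GC and length offset, and leaving out each library. The edgeR step was tested on simulated data. Of added changes of 1 log2 unit it recovered 18% for HA against bare alloy, 54% for TiB2 against bare alloy and 24% for HA against TiB2. A gene not called on HA is therefore not shown to be unchanged, and the counts of calls on HA and TiB2 differ in power. Promoters came from RefSeq (GRCh38.p14) and transcripts from GENCODE 29. Totals of 58464306 to 72542556 counts set the precision, and intervals from counting cover counting error only.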

Additional observations from a re-analysis of the deposited data

How the results depend on the processing

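No member rose in either comparison with bare alloy, and none was called between HA and TiB2, under any alternative run. The number of members lower on HA (9) ranged from 4 to 11 when 1 library was left out, and the median (-1.25) from -1.41 to -0.63. With bare alloy replicate 1 as the only bare library they were 3 and -1.81. On TiB2 the number (23) ranged from 17 to 25 without 1 library and the median (-1.11) from -1.32 to -0.77. The median between HA and TiB2 (0.12) ranged from -0.16 to 0.31. With limma on log2(FPKM + 1), which shrinks low genes, the medians were -0.53 on HA and -0.65 on TiB2. With all 9 libraries in 1 fit 14 members fell on TiB2, and the cause was not tested. Summed as FPKM, the log2 ratio to bare alloy was -0.93 for H2A on TiB2 (-1.22 in CPM) and -0.996 for H4 on HA (-0.75). H2AC8 on HA (-0.10) turned to 0.27 without bare alloy replicate 1, 0.17 without HA replicate 1 and 0.23 without HA replicate 2, and was -0.97 without HA replicate 3. H2BC15 on TiB2 (0.04) turned to -0.0079 with upper-quartile scaling, -0.017 without bare alloy replicate 2 and -0.076 without TiB2 replicate 3. H3-3B on TiB2 (-0.07) was 0.00017 without TiB2 replicate 2 and -0.17 without TiB2 replicate 1. NPAT on HA (0.32) was -0.041 without HA replicate 2 and 0.52 without HA replicate 3. H1-10 on HA (-1.67) was 0.10 with bare alloy replicate 1 alone. Replicate numbers did not pair the libraries: same-numbered deviations correlated at -0.13 to 0.11, and 2 of 6 libraries matched best with their own number for HA and bare alloy and 0 of 6 for the other comparisons. With the number as a replicate block 6 members fell on HA and 18 on TiB2, and with a GC and length offset added 8 and 18. Over all genes the calls on HA (1990) were 3562 with DESeq2, 1093 without the count filter, 3518 with all 9 libraries, 3112 with the offset, 286 with bare alloy replicate 1 alone, 857, 598 and 601 without bare alloy replicate 1, 2 and 3, 4185 without HA replicate 1 and 1092 without HA replicate 2. On TiB2 (5059) they were 2132 with all 9 libraries, and between HA and TiB2 (127) they were 501 with DESeq2, 35 without the filter, 67 with all 9, 195 with the block, 49, 66 and 62 without TiB2 replicate 1, 2 and 3, 1224 without HA replicate 1 and 49 without HA replicate 2. Settings other than a left-out library ended the TiB2 call of SLBP and H2BC17 in 6 of 11, of H4C11 in 4 and of H2BC8 in 3 of 11 and of H2AC18 and H2AC19 in 3 of 9, and the HA call of H2BC18 in 4 and of H2AC11 and H3C10 in 3 of 12. Each other named call was ended in 0 to 2.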

Other observations

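The 7 rows left out by name include H2BC20P and H2BC19P, which were as well measured as the histone genes. H2BC20P had 21.9, 18.4 and 22.2 CPM on bare alloy, 17.2, 24.4 and 20.01 on TiB2 and 16.9, 20.5 and 16.6 on HA, so that the surfaces overlapped, with edgeR log2 fold changes of -0.02 ± 0.14 on TiB2 and -0.21 ± 0.17 on HA (adjusted p = 0.944 and 0.457). H2BC19P had -0.39 ± 0.20 and -0.53 ± 0.30 (edgeR adjusted p = 0.187 and 0.300). Neither row passed the test. The difference between these rows and the members was not tested.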
